A study of Mus musculus with 9 samples.

Results

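The genes Krt8, Krt18, Krt19, Krt20 and Krt23 encode the keratins of simple, single-layered epithelium, and were taken by gene name as 5 of the 78239 genes in the deposited count table. They were read in 9 RNA-seq libraries of polyadenylated RNA from the intestinal epithelium of mice 8 weeks old. All 9 libraries came from Lgr5-2A-eGFP animals, which carry a GFP reporter for Lgr5, a receptor of crypt base stem cells, and the labels name no treatment. Crypts were loosened in chelation buffer, made into single cells with TrypLE and sorted by flow cytometry on GFP. There were 3 libraries of the GFP-high fraction of colon, 3 of its GFP-negative fraction and 3 of small intestine, and each colon fraction held at least 30000 cells and each small intestinal fraction at least 50000. The labels do not say which GFP fraction the small intestinal libraries are, so tissue and fraction cannot be told apart in any comparison of colon with small intestine. They also do not say whether libraries of a group came from separate animals, so p-values measure only the spread between these samples, which may be technical.

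Keratins are obligate heteropolymers: a basic type II chain (here Krt8, with the less abundant Krt7) pairs with an acidic type I chain (Krt18, Krt19, Krt20 or Krt23), and the pairs assemble into intermediate filaments that are anchored at desmosomes. A chain without a partner is degraded. In the intestine Krt8 is the main type II chain, Krt18 and Krt19 are its usual partners along the crypt, and Krt20 is a classical marker of differentiated cells near the lumen.

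Before the keratins are described, 1 pair of libraries needs to be set apart. Lgr5, the gene that the sorting reports, was at 43.5, 0.958 and 73.0 CPM (counts scaled to library size with TMM factors) in the libraries labelled colon GFP-high 1, 2 and 3. It was at 2.84, 62.1 and 6.28 CPM in those labelled colon GFP-negative 1, 2 and 3, and at 57.9, 120 and 209 CPM in small intestine 1, 2 and 3. Lgr5 thus goes against the label in both colon libraries of replicate 2. All libraries keep the group of their label below, and for the colon groups the log2 differences, the overlap of the libraries and the type II to type I makeup are also given without that pair. Totals ran from 86621513 to 106673547 counts per library, and the lowest count of any of the 5 keratins in any library was 1142, so counting error is small beside the spread between libraries. The epithelial identity given by the labels was checked with a list of 10 markers. Their sum was lowest in small intestine 3, at 8817 CPM, and highest in colon GFP-negative 1, at 19038 CPM. Epcam, an adhesion molecule of epithelial cells, ran from 3017 to 6207 CPM. Cldn3 had no count in any library, for a reason that was not tested, so its absence from the cells is not shown.

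In the genome the members form adjacent pairs. On chromosome 15 of GRCm38, Krt8 (ENSMUSG00000049382.11, chr15:101996698-102004482, minus strand) and Krt18 (ENSMUSG00000023043.8, chr15:102028180-102032027, plus strand) lie 23697 bases apart with 0 annotated genes between them. Krt18 is the only type I keratin among these that sits in the type II cluster. On chromosome 11, Krt20 (ENSMUSG00000035775.3, chr11:99428403-99438150, minus strand) and Krt23 (ENSMUSG00000006777.8, chr11:99477974-99493137, minus strand) lie 39823 bases apart with 0 genes between them. Krt19 (ENSMUSG00000020911.15, chr11:100140810-100148665, minus strand) is 647672 bases from Krt23, with 67 genes between, 11 of them keratins. Neighbours did not share a pattern over the 9 libraries. Pearson's r of log2 CPM was -0.22 for Krt8 with Krt18 and -0.08 for Krt20 with Krt23.

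The start regions of the adjacent pairs are printed because the genes of a pair lie side by side and yet took different levels across the libraries. The windows come from RefSeq on GRCm38.p6, where 4 of the 5 members matched, and hold 250 bases before and 50 bases after the RefSeq transcript start, written along the gene's own strand. They span chr15:102004293-102004592 (Krt8, minus), chr15:102027966-102028265 (Krt18, plus), chr11:99438104-99438403 (Krt20, minus) and chr11:99493071-99493370 (Krt23, minus). Capitals mark the letters TTTAT or their reverse complement ATAAA, the core bound by Cdx homeobox proteins, which are intestinal transcription factors.
Krt8: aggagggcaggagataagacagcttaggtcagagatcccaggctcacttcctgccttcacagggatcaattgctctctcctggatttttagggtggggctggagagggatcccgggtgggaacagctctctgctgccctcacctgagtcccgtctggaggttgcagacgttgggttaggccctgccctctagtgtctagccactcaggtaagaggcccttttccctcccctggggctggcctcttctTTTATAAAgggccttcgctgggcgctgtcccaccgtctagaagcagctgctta
Krt18: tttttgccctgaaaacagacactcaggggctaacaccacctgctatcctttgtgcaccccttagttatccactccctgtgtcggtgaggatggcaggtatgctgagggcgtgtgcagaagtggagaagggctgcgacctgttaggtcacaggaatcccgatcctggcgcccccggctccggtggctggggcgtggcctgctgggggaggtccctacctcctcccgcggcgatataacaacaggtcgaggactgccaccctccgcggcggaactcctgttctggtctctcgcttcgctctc
Krt20: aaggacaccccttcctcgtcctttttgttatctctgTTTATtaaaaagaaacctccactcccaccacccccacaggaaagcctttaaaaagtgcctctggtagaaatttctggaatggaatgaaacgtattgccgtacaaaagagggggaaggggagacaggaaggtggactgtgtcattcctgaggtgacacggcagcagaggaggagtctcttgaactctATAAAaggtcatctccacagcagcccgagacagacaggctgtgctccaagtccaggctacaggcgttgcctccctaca
Krt23: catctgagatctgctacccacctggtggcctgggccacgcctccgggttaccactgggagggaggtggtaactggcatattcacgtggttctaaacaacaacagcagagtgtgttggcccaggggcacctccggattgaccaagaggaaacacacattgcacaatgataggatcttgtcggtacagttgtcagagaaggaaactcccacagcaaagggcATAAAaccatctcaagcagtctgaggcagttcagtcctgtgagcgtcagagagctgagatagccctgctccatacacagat

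The core TTTAT, searched on both strands, had 2 matches in the Krt8 window, 2 in Krt20, 1 in Krt23 and 0 in Krt18, and 40.0% of all 32851 windows of this length hold at least 1. In Krt8 both matches lie in the single run TTTATAAA around the RefSeq start. The Krt20 matches are 214 and 28 bases before the start, and that of Krt23 is 31 bases before it. The TATA box letters TATAAA overlap the same core and were found 2 times in Krt8, on opposite strands of that run, 1 time in Krt20, 29 bases before the start, and 0 times in Krt18 and Krt23, against 13.6% of all windows. The letters AGGTCA, bound by many nuclear receptors, had 1 match each in Krt8, Krt18 and Krt20 and 0 in Krt23 (16.3% of all windows), and CACCC had 2 each in the first 3 and 0 in Krt23 (57.5%). Neither the GC box GGGCGG (35.7%) nor the AP-1 letters TGANTCA (7.81%) had a match in the 4 windows. GC content was 58.0% in Krt8, 61.3% in Krt18, 50% in Krt20 and 53.0% in Krt23, with a median of 52.7% over all windows. These are matches of letters in a window, not measured binding.

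The keratins of this set were abundant transcripts. Together they took between 0.815% and 1.68% of all counts of a library. Per kilobase of gene length, the median level over the 9 libraries was 3133 CPM per kb for Krt8, 1596 for Krt18, 1460 for Krt19, 214 for Krt20 and 39.8 for Krt23. Krt18 and Krt19 are not distinct in that order: Krt19 per kb ranged from 0.441 to 3.80 times Krt18 across libraries.

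**Figure D1:**
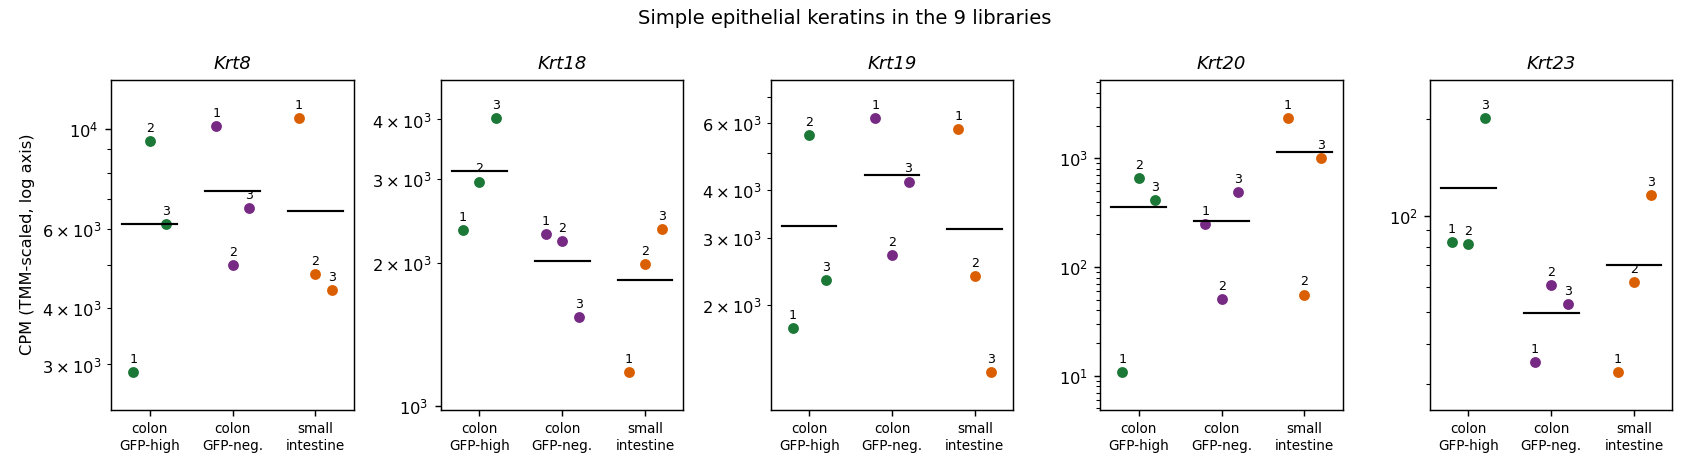
Level of each of the 5 keratins in CPM (log axis, a separate scale for each gene) in 3 libraries per group, with GFP-high and GFP-negative colon to the left of small intestine. Points are libraries with their replicate number and bars are group means: Krt20 spreads from 10.9 to 2364 CPM while Krt18 stays between 1179 and 4032 CPM.

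Krt8, the main type II chain, was between rank 2 and rank 12 of all genes by CPM in every library. The GFP-high colon libraries 1 to 3 held 2892, 9394 and 6135 CPM, the GFP-negative ones 10144, 4993 and 6673 CPM, and the small intestinal ones 10580, 4767 and 4396 CPM. The lowest library was colon GFP-high 1 and the highest small intestine 1, 3.66-fold apart, and the 3 groups overlap. Group means were 6140 ± 3251, 7270 ± 2627 and 6581 ± 3468 CPM (SD, n = 3 each), so the means lie closer together than the libraries of any group. In bulk samples such as these, fewer cells of a type and less RNA per cell cannot be told apart.

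Krt18, the first type I partner of Krt8, was at 2340, 2962 and 4032 CPM in the colon GFP-high libraries, at 2293, 2220 and 1534 CPM in the colon GFP-negative libraries and at 1179, 1986 and 2348 CPM in the small intestine. As labelled, every GFP-high library was above every GFP-negative library, the nearest values being 2340 and 2293 CPM. GFP-high 1 was below small intestine 3. Means were 3111 ± 856, 2016 ± 419 and 1838 ± 598 CPM (SD, n = 3 each). The rank of Krt18 among all genes moved from 4 in colon GFP-high 3 to 139 in small intestine 1.

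Krt19, a type I keratin that lacks most of the usual tail domain, stood at 1740, 5577 and 2321 CPM in GFP-high colon cells, at 6180, 2709 and 4208 CPM in GFP-negative ones and at 5779, 2381 and 1336 CPM in the small intestine. Its high libraries, colon GFP-negative 1, small intestine 1 and the library labelled colon GFP-high 2, were also the 3 highest for Krt8. Means were 3213 ± 2068, 4366 ± 1741 and 3166 ± 2323 CPM (SD, n = 3 each), and the groups overlap.

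Krt20, the keratin of differentiated intestinal cells, had the widest spread of the 5, 217-fold between its lowest and highest library. Values were 10.9, 655 and 412 CPM for GFP-high colon libraries 1 to 3, 251, 51.2 and 488 CPM for the GFP-negative ones, and 2364, 55.9 and 1007 CPM for small intestine 1 to 3. Each group holds libraries far apart: 60.1-fold in GFP-high, 9.53-fold in GFP-negative and 42.3-fold in small intestine. Means were 359 ± 325, 263 ± 219 and 1142 ± 1160 CPM (SD, n = 3 each), and by rank Krt20 was the gene in place 59 in small intestine 1 and in place 7670 in colon GFP-high 1.

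Krt23, a less studied type I keratin, reached 82.6, 81.6 and 202 CPM in the GFP-high libraries, 35.0, 60.9 and 53.0 CPM in the GFP-negative libraries and 32.7, 62.3 and 116 CPM in those of small intestine. The 2 colon groups do not overlap as labelled, with 81.6 CPM as the lowest GFP-high and 60.9 CPM as the highest GFP-negative value. Small intestine overlaps both. Krt18 and Krt23 were the 2 members of 5 whose colon groups did not overlap as labelled, and the same holds for 4.41% of all genes tested. This uses the replicate 2 labels, which Lgr5 goes against. With the labels of that pair exchanged, both genes would overlap. Krt18 was at 2220 CPM in the library labelled GFP-negative 2 and 2962 CPM in that labelled GFP-high 2, and Krt23 at 60.9 and 81.6 CPM. The same exchange would leave Krt8 and Krt19 without overlap. Krt8 would be at 2892, 4993 and 6135 CPM against 10144, 9394 and 6673 CPM. Krt19 would be at 1740, 2709 and 2321 CPM against 6180, 5577 and 4208 CPM. The share of all genes under that exchange was not computed. With the pair of replicate 2 set aside, Krt18 and Krt23 still did not overlap. Krt8 (2892 and 6135 against 10144 and 6673 CPM) and Krt19 (1740 and 2321 against 6180 and 4208 CPM) did not either, GFP-high being lower. That makes 4 of the 5 members, against 37.7% of all genes tested, and it rests on 2 libraries per fraction. Krt20 (10.9 and 412 CPM against 251 and 488 CPM) still overlapped. Means of Krt23 were 122 ± 69.0, 49.7 ± 13.3 and 70.3 ± 42.1 CPM (SD, n = 3 each).

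The comparison of the colon fractions asks how cells with high Lgr5 reporter signal differ from cells without it. None of the 5 keratins passed edgeR's quasi-likelihood test at a Benjamini-Hochberg adjusted p under 0.05. The share of all 20610 genes tested that passed was 0%, with 226 at an unadjusted p under 0.05, and DESeq2 called 1 gene and limma-voom 0. Krt23 had the largest estimate, a log2 difference of GFP-high over GFP-negative of 1.29 ± 0.52 (SE), with a 95% interval from 0.12 to 2.47, an unadjusted edgeR p of 0.0348 and an adjusted p of 1. Krt23 was the single member at an unadjusted p under 0.05 in edgeR, and 1 member was in DESeq2 and in limma-voom. For Krt18 the log2 difference was 0.63 ± 0.37 (interval -0.21 to 1.46), for Krt8 -0.25 ± 0.55 (-1.50 to 1.01) and for Krt19 -0.45 ± 0.64 (-1.91 to 1.01). For Krt20 it was 0.43 ± 1.41, with an interval from -2.77 to 3.64 that spans large differences either way. The median over the 5 was 0.43, against -0.02 over all genes tested.

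When the pair labelled colon replicate 2 was left out, the log2 difference of GFP-high over GFP-negative was 1.68 for Krt23, 0.73 for Krt18, -0.90 for Krt8, -1.36 for Krt19 and -0.82 for Krt20. Krt20 thus changed sign, and Krt8 and Krt19 moved further below 0. Still none of the 5 passed in edgeR, where 0 genes were called and 1582 had an unadjusted p under 0.05, in DESeq2, which then called 700 genes, or in limma-voom, which called 2. The sign of Krt18 and of Krt23 was the same in all 21 alternatives, from 0.30 to 0.79 and from 0.72 to 1.68. No alternative exchanged the labels of that pair.

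**Figure D2:**
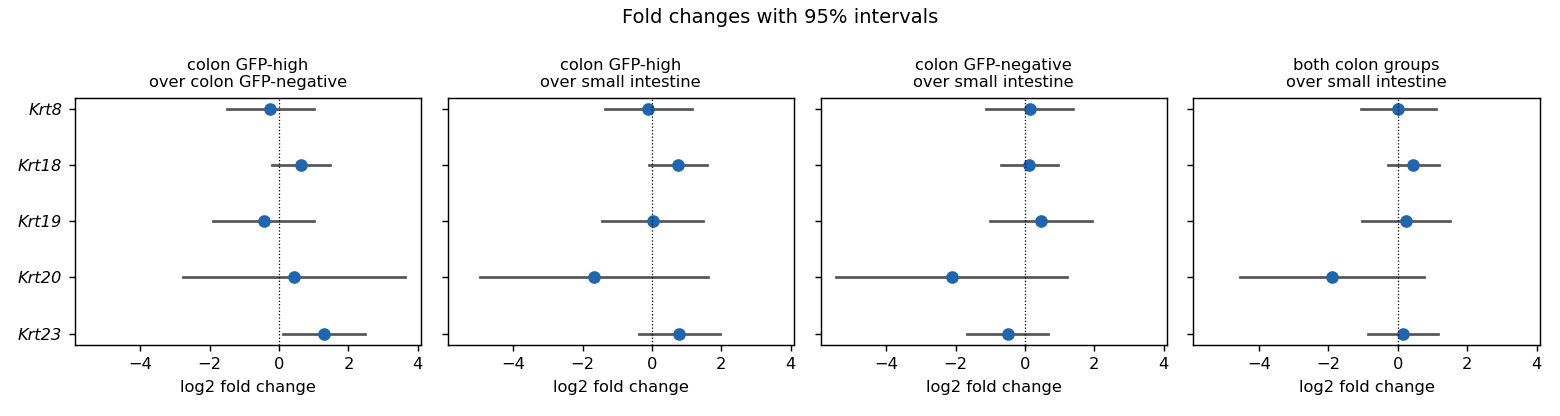
Log2 fold change of each keratin in the 4 comparisons, with 95% intervals from edgeR's quasi-likelihood fit of 9 libraries. Every interval includes 0 except that of Krt23 in colon GFP-high over colon GFP-negative (0.12 to 2.47), and the Krt20 intervals are the widest.

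Small intestine was compared with each colon group and with both together, which share the same 3 small intestinal libraries. None of the 5 keratins passed in any of these comparisons, while 5.69% of all genes tested were called for colon GFP-high over small intestine, 5.66% for colon GFP-negative over small intestine and 8.79% for both colon groups over small intestine. The median log2 difference over the 5 keratins was 0.02, 0.13 and 0.15 in the same order, and that over all genes tested 0.02, -0.00157 and -0.000298. Krt20 was lower in both colon groups than in small intestine by the estimate, at -1.89 ± 1.17 on the log2 scale (interval -4.56 to 0.77, adjusted p = 0.357, edgeR). Its values were -1.68 for GFP-high and -2.11 for GFP-negative, but small intestine 2, at 55.9 CPM, was below 4 of the 6 colon libraries. For Krt8 the log2 difference of both colon groups over small intestine was 0.02 ± 0.48 (-1.07 to 1.11), and for Krt19 0.24 ± 0.56 (-1.03 to 1.51). For Krt18 it was 0.44 ± 0.32 (-0.29 to 1.18) and for Krt23 0.15 ± 0.45 (-0.86 to 1.15). Differences of 2-fold either way thus lie within the intervals of Krt8 and Krt19, so a p above the threshold does not show that the tissues had the same level. With that pair left out, the log2 difference of GFP-high over small intestine was -0.64 for Krt19, -0.55 for Krt8 and -2.44 for Krt20, and that of both colon groups was -0.09 for Krt8. The lowest adjusted p that any of the 5 reached was 0.145, for Krt18 in GFP-high over small intestine with DESeq2. No member passed in any of the 415 values computed under alternatives.

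Library names carry a tag whose meaning the labels do not give, and libraries with the same tag can be set side by side. Under tag 2_7_2, colon GFP-negative 1 was above colon GFP-high 1 by 3.51-fold for Krt8, 3.55-fold for Krt19 and 23.0-fold for Krt20, while GFP-high 1 was above by 2.36-fold for Krt23 and 1.02-fold for Krt18. Under tag 27_6_1, the library labelled colon GFP-high 2 was above that labelled GFP-negative 2 for all 5: 1.88-fold for Krt8, 1.33-fold for Krt18, 2.06-fold for Krt19, 12.8-fold for Krt20 and 1.34-fold for Krt23. Krt8, Krt19 and Krt20 were therefore higher in the colon library with less Lgr5 in both tags. Krt18 and Krt23 were higher in the library labelled GFP-high in both. That library had more Lgr5 under tag 2_7_2 and less under tag 27_6_1, so Krt18 and Krt23 kept no direction by Lgr5. Under tag 30_5, small intestine 3 was above colon GFP-high 3 by 2.45-fold for Krt20, and colon GFP-high 3 was above by 1.74-fold for Krt23, 1.74-fold for Krt19, 1.72-fold for Krt18 and 1.40-fold for Krt8. The 2_7_2 libraries of colon and small intestine gave other directions. Small intestine 2 was above colon GFP-high 1 by 1.65-fold for Krt8, 1.37-fold for Krt19 and 5.13-fold for Krt20, and below it for Krt18 (1.18-fold) and Krt23 (1.33-fold). Colon GFP-negative 1 was above small intestine 2 by 2.13-fold for Krt8, 1.15-fold for Krt18, 2.60-fold for Krt19 and 4.48-fold for Krt20, and below it by 1.78-fold for Krt23. Each of these ratios rests on 1 library against 1, with no replicate check.

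Filaments hold both types of protein in equal amounts, while the values here are of transcripts only. The sum of type II transcripts (Krt8 and Krt7) was set against that of type I (the other 4 members), each in CPM per kb. The ratio was 0.596, 0.905 and 0.734 in the GFP-high colon libraries, 1.04, 0.865 and 0.955 in the GFP-negative ones, and 1.05, 0.909 and 0.772 in those of small intestine. Over the 9 libraries it spanned from 0.596 to 1.05, a smaller fold range than that of any of the 5 genes, and group means were 0.745 ± 0.155, 0.954 ± 0.088 and 0.910 ± 0.139 (SD, n = 3 each). The type I sum by itself ran from 2625 to 5460 CPM per kb. The ratios of the groups overlap as labelled. With the pair of replicate 2 set aside, the colon ratios were 0.596 and 0.734 in GFP-high against 1.04 and 0.955 in GFP-negative, which do not overlap, and the means were 0.665 and 0.999 with 2 libraries each. With the labels of that pair exchanged, the colon ratios would be 0.596, 0.865 and 0.734 against 1.04, 0.905 and 0.955, also without overlap. The ratio depends on the deposited gene lengths: without dividing by length the group means were 0.979, 1.17 and 1.09.

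Which type I chain made up that sum differed much more between libraries. Krt18 was 62.0%, 37.7% and 63.8% of the type I sum in GFP-high colon libraries 1 to 3, 31.4%, 50.3% and 29.5% in the GFP-negative ones, and 15.8%, 50.5% and 55.4% in those of small intestine. Krt19 was 35.7%, 55.1% and 28.4%, then 65.6%, 47.5% and 62.6%, then 60.1%, 46.9% and 24.4% in the same order. With the pair of replicate 2 set aside, the Krt18 share was 62.0% and 63.8% in GFP-high colon against 31.4% and 29.5% in GFP-negative, and the Krt19 share 35.7% and 28.4% against 65.6% and 62.6%. Krt18 was the larger share in colon GFP-high 1 and 3, GFP-negative 2 and small intestine 2 and 3.

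**Figure D3:**
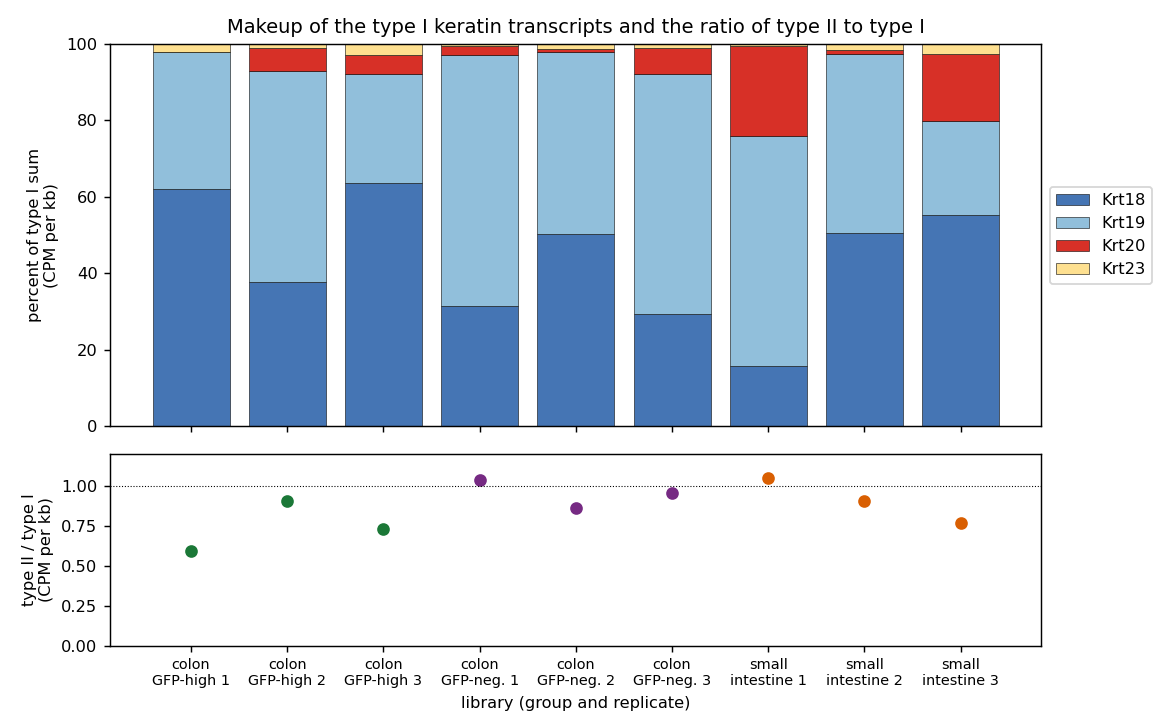
Top, percent of the type I keratin sum (CPM per kb) taken by Krt18, Krt19, Krt20 and Krt23 in each library. Bottom, ratio of type II (Krt8 and Krt7) to type I in the same libraries, between 0.596 and 1.05, with a dotted line at 1. Both the makeup and the ratio differ between libraries.

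Krt20 took from 0.215% of the type I sum in colon GFP-high 1 to 23.7% in small intestine 1. It took 17.7% in small intestine 3, 1.06% in small intestine 2 and at most 6.99% in any colon library, so the tissues overlap. Krt23 took from 0.403% to 2.93%. Krt8 per kb was from 0.907 to 6.58 times Krt18, so the canonical pair was nearest to equal amounts in colon GFP-high 1 and furthest from it in small intestine 1.

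Between members, log2 CPM over the 9 libraries gave Pearson's r of 0.91 for Krt8 with Krt19, 0.80 for Krt18 with Krt23 and 0.72 for Krt8 with Krt20. It was 0.43 for Krt19 with Krt20, -0.34 for Krt18 with Krt19, -0.48 for Krt8 with Krt23 and -0.67 for Krt19 with Krt23. These are descriptions of 9 libraries in 3 groups that share scaling, and in part a name tag. The type II chain Krt8 thus ran closest to Krt19 and not to Krt18, its neighbour in the genome.

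For each member the 5 genes with the most similar log2 CPM were taken from the 10288 genes with a mean of at least 5 CPM, by Pearson's r over the same 9 libraries. Nearest to Krt8 were Chmp2b (0.964), a subunit of the membrane-remodelling ESCRT complex, Slc25a13 (0.963), a mitochondrial aspartate-glutamate carrier, the acyl-CoA dehydrogenases Acadl (0.949) and Acadm (0.945), and Lactb2 (0.947). Nearest to Krt19 were Ctsh (0.975), a lysosomal cysteine protease, Cox5a (0.958) and Uqcrfs1 (0.957), subunits of the respiratory chain, Nipsnap3b (0.958) and Mal2 (0.956), a protein of apical transport. Krt18 had weaker neighbours: Tamalin (0.907), Acss2 (0.873), which makes acetyl-CoA from acetate, Arhgef28 (0.868), Ptprt (0.860) and 2810402E24Rik (0.854). Those of Krt23 were Hap1 (0.950), Trib1 (0.914), Stra6l (0.899), Cpn1 (0.883) and Sh2d7 (0.877).

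The genes nearest to Krt20 were Ces2c (0.981), a carboxylesterase, Efnb2 (0.975), a membrane ligand of Eph receptors, Cdhr5 (0.974), a cadherin of the brush border, Lipa (0.974), the lysosomal acid lipase, and Ceacam20 (0.973), a microvillus membrane protein. Cdhr5 and Ceacam20 are also on the list of 16 measured mature colonocyte markers. All 5 were lowest in colon GFP-high 1 and highest in small intestine 1, where Krt20 has its extremes. That follows largely from choosing them by likeness to Krt20 in these libraries. Ceacam20 ran from 0.153 to 85.9 CPM between colon GFP-high 1 and small intestine 1.

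**Figure D4:**
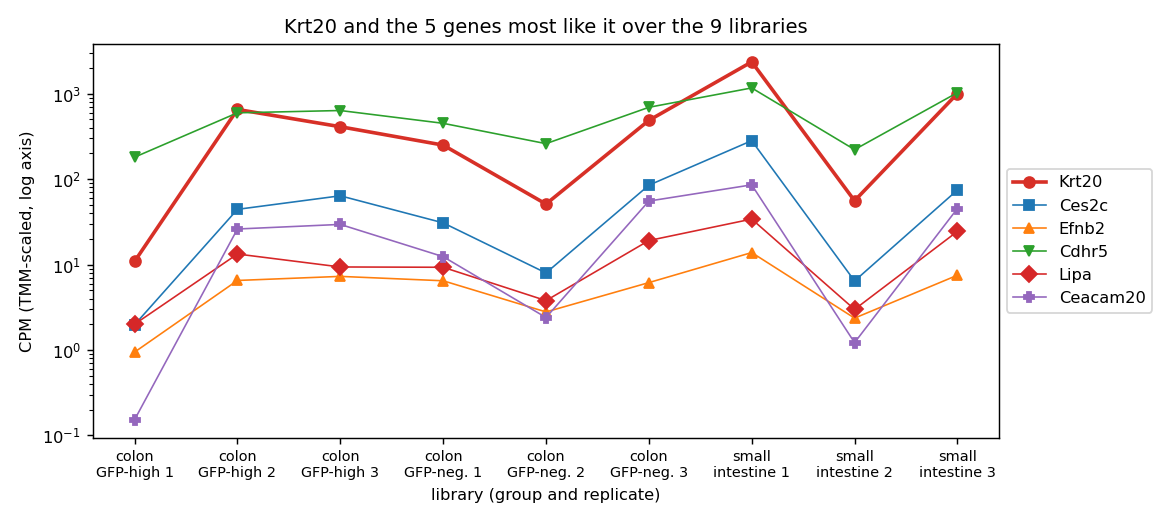
Krt20 and the 5 genes with the most similar pattern, in CPM on a log axis, in each of the 9 libraries (lines join libraries of the same gene and imply no order). All 6 genes are lowest in colon GFP-high 1 and highest in small intestine 1, and dip in colon GFP-negative 2 and small intestine 2. The 5 were chosen for this likeness.

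Markers of crypt and other cell types varied over the same libraries, and their part in the keratin values was not tested. The summed mature colonocyte list was at 2889, 35951 and 15055 CPM in the GFP-high colon libraries, 21452, 7377 and 43845 CPM in the GFP-negative ones and 12121, 2526 and 2995 CPM in those of small intestine. In the colon it was lowest in GFP-high 1 and GFP-negative 2, as Krt20 was. The stem cell list (12 genes, all tested) summed to 1112, 433 and 1366 CPM, then 439, 1340 and 372 CPM, then 848, 2011 and 2132 CPM in that order. Enterocyte markers ran from 132 to 278 CPM in colon and were at 33919, 651 and 7596 CPM in small intestine 1 to 3, the order that Krt20 takes there. Goblet markers summed to 4808, 31174 and 3756 CPM, 33760, 7653 and 17475 CPM, and 18333, 1427 and 2654 CPM in the same order of groups. The highest library of each group was thus the same for goblet markers, Krt8 and Krt19. It was also the same for the summed epithelial list, at 16331 CPM in colon GFP-high 2, 19038 CPM in colon GFP-negative 1 and 17480 CPM in small intestine 1.

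Krt23 was higher in colon GFP-high as labelled but was not called. In that fraction the 4 tuft cell markers summed to 65.7, 208 and 317 CPM. In colon GFP-negative they summed to 70.4, 65.6 and 77.4 CPM, so the fractions overlap. The 208 CPM is of the library labelled GFP-high 2, with Lgr5 at 0.958 CPM. Of the tuft estimates 4 of 4 were above 0 and 0 were called, with a median of 1.42 against -0.02 over all genes tested. Small intestine had 66.3, 123 and 469 CPM, and colon GFP-high 3 and small intestine 3 were the top libraries for both the tuft sum and Krt23. Those libraries share the tag 30_5. Colon GFP-high 1 and 2 held Krt23 at 82.6 and 81.6 CPM, with tuft sums of 65.7 and 208 CPM. A link between the tuft sum and Krt23 was not tested. Leukocyte markers summed to between 2.63 and 327 CPM in the GFP-high colon libraries, between 4.0 and 2925 CPM in the GFP-negative ones and between 14.5 and 48.6 CPM in those of small intestine. Stromal markers stayed between 1.21 and 6.32 CPM. Among stratified squamous markers Krt5 and Krt6a had no count in any library, and the list summed to 11.2 CPM at the lowest and 217 CPM at the highest, in colon GFP-negative 3.

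Of the 51 other keratin genes in the table, 18 had no count in any library, 19 were tested and 7 had a mean of at least 1 CPM. The 19 included 2 that were higher in both colon groups than in small intestine, Krt7 and Krt87, and 2 that were lower, Krt15 and Krt31, against 5% of all genes called higher and 3.79% called lower. The median log2 difference of the 19 was 1.45. In colon GFP-high over GFP-negative 0 of the 19 were called.

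Krt7, the second type II chain of simple epithelium, held 617, 994 and 671 CPM in GFP-high colon cells, 803, 757 and 381 CPM in GFP-negative ones and 271, 363 and 227 CPM in the small intestine. All 6 colon libraries were above all 3 small intestinal ones, as for 9.49% of all genes tested. The log2 difference was 1.29 ± 0.32 (edgeR adjusted p = 0.0410), and it kept its sign in all 20 alternatives but passed in 8, and in 1 of the 9 fits that leave out a library, with adjusted p up to 0.328 over all alternatives. With the colon pair of replicate 2 left out it was 1.11 (adjusted p = 0.125, edgeR). Krt8, its type II companion, had a log2 difference of 0.02 in the same comparison, and the difference between these estimates was not tested.

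Krt87, a keratin known from hair, was at 16.4, 72.4 and 21.8 CPM, then 22.0, 19.4 and 54.9 CPM in the colon fractions. It was at 2.08, 3.94 and 2.00 CPM in the small intestinal libraries, and the log2 difference was 3.68 ± 0.67 (edgeR adjusted p = 0.0106). It passed in 16 of 20 alternatives, and not without small intestine replicate 1 or 3 (adjusted p up to 0.0613). Krt15, known from basal cells of stratified epithelium, went the other way, from 0.389 to 1.37 CPM in colon and at 5.39, 11.3 and 14.6 CPM in small intestine. Its log2 difference was -3.44 ± 0.47 (edgeR adjusted p = 0.00338), called in 19 of 20 alternatives. Krt31, a hair keratin, was at 0 to 0.379 CPM in colon and 2.28, 4.48 and 4.03 CPM in small intestine (edgeR adjusted p = 0.0248, called in 11 of 20 alternatives). It passed in 3 of the 9 fits that leave out a library, with edgeR adjusted p up to 0.0797 in those fits. Krt10 was nearly level, from 6.55 to 12.5 CPM over the 9 libraries (edgeR adjusted p = 0.731 for both colon groups over small intestine). With the colon pair of replicate 2 left out, the edgeR adjusted p was 0.0106 for Krt87, 0.0198 for Krt15 and 0.00324 for Krt31. The log2 difference of Krt31, whose colon levels are near 0, was then -8.99, against -5.77 in the main fit. Krt83 (adjusted p = 0.172) and Krt222 (0.697) did not pass.

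**Figure D5:**
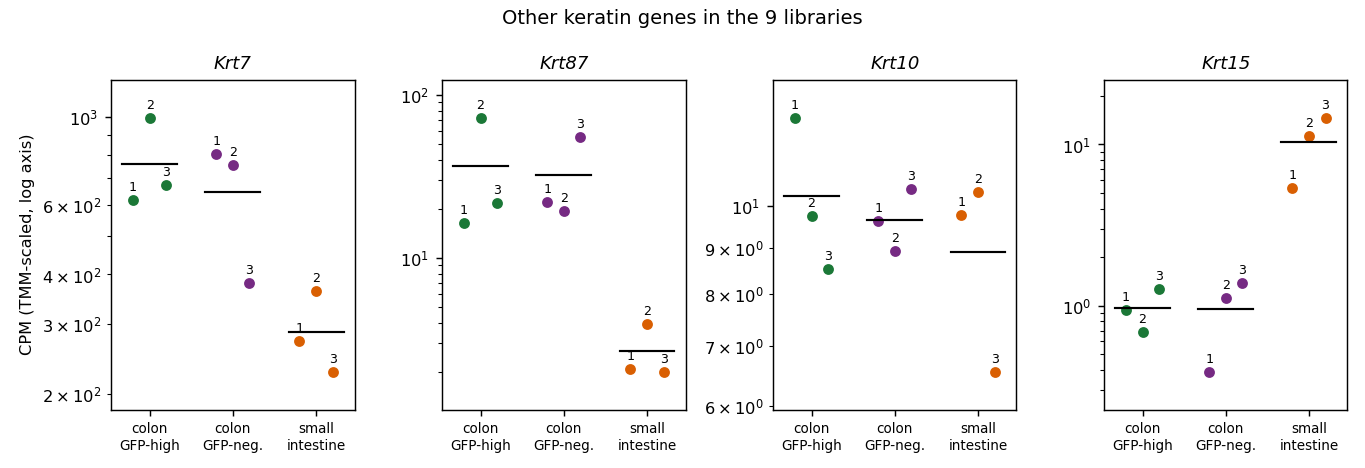
CPM (log axis, a separate scale for each gene) of Krt7, Krt87, Krt10 and Krt15 in the 9 libraries, with group means as bars. Krt7 and Krt87 are higher in all colon libraries than in small intestine, Krt15 is lower, and Krt10 overlaps.

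Genes that anchor keratin filaments at desmosomes and hemidesmosomes did not pass in any of the 4 comparisons: 0 of 16 tested of a list of 18. Over all genes tested the shares called were 0%, 5.69%, 5.66% and 8.79% in the order of the comparisons above, so few or no calls among 16 genes are near the background. Their median log2 difference of both colon groups over small intestine was -0.43, with 12 of 16 below 0, and the median over all genes was -0.000298. The most abundant were Perp, a desmosomal membrane protein, from 140 to 405 CPM, and Jup, which encodes plakoglobin, from 111 to 259 CPM. Of 13 tested genes of other intermediate filaments, Lmna, which encodes the nuclear lamins A and C, was the single gene called, against 5% of all genes called higher. Its level was 394, 537 and 349 CPM in GFP-high colon cells, 592, 409 and 303 CPM in GFP-negative ones and 168, 149 and 131 CPM in the small intestine. The log2 difference was 1.53 ± 0.28 (edgeR adjusted p = 0.0106), called in 17 of 20 alternatives and not without small intestine replicate 3 (0.0515). With the colon pair of replicate 2 left out it was 1.45 (adjusted p = 0.0429, edgeR).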

How the data were processed

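RNA-seq was read from 9 libraries in 3 labelled groups of 3. The submitters' processing notes name mm10 as the genome build and STAR, Subread, featureCounts and edgeR as tools. Any further detail, such as a version, the annotation release or the strand setting, is not given in the sources used here, so reads of overlapping genes cannot be told apart. The deposited table gives a raw read count per gene and library, and also the authors' gene length, library total, TMM factor (a scaling ratio per library that the authors computed) and expression values as log2 TPM, RPKM and CPM, which enter no test. Levels here are CPM from the deposited count, total and factor. Recomputed factors differed from the deposited ones by less than 1e-06. Genes with low counts were removed by edgeR's filterByExpr by group, which left 20610 genes and set 57629 aside.

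Counts were fitted with edgeR 4.0.16 (glmQLFit and glmQLFTest, TMM) in R 4.3.3, in a single fit of 9 libraries without a block, called at a Benjamini-Hochberg adjusted p under 0.05 over all genes tested. The common biological coefficient of variation was 0.726. Intervals are at the 95% level. DESeq2 1.42.0 and limma-voom (limma 3.58.1), RLE and total-count scaling, no filter, blocks by replicate number and by name tag, fits of only the groups compared, without the pair of colon replicate 2 libraries, and without each library in turn were alternatives. The block by the start of the name tag, and the fits without the pair in DESeq2 and limma-voom, were added after seeing the data, as were the type II to type I ratios without the pair or without 1 library. Gene positions are from GENCODE on GRCm38, and promoters from RefSeq on GRCm38.p6.

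Named genes are the 5 members, Krt7 and other keratins averaging at least 1 CPM, the 5 genes most like each member by Pearson's r of log2 CPM (prior count 2), and called or most abundant genes of the anchoring, intermediate filament and cell type lists, of which the text names those that a keratin result turns on. The keratins and lists were chosen with earlier results of these data known. The lists are keratin anchoring, other intermediate filament, epithelial, stem cell, mature colonocyte, enterocyte, goblet, tuft, enteroendocrine, stratified squamous, leukocyte, stromal and endothelial. In both colon groups over small intestine, where 5% of all genes tested were called higher and 3.79% lower, edgeR called 1 of 9 epithelial genes lower (Vil1, in 6 of 20 alternatives), 1 of 12 stem cell genes lower, 2 of 16 mature colonocyte genes higher and 1 lower, 8 of 9 enterocyte genes lower, 2 of 6 goblet genes higher, 1 of 7 squamous genes lower (Krt15) and 1 of 3 endothelial genes lower, and 0 of 4 tuft, 5 enteroendocrine, 12 leukocyte and 3 stromal genes. In colon GFP-high over GFP-negative it called 0 in every list.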

Additional observations from a re-analysis of the deposited data

How the results depend on the processing

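None of the 5 keratins passed in any comparison under any alternative that was run. Of their 415 estimates under alternatives, 39 had the other sign. Krt18 and Krt23 in colon GFP-high over GFP-negative, Krt19 in that comparison, and Krt18 and Krt23 in GFP-high over small intestine are among the results that kept their sign. The cause of the changes below was not tested. The log2 difference of Krt20 in colon GFP-high over GFP-negative turned to -0.37 with limma-voom, -1.57 with a replicate block by name tag, and -0.82, -0.87 and -2.39 without the pair of colon replicate 2 libraries in edgeR, DESeq2 and limma-voom. In GFP-high over small intestine, Krt8 turned to 0.016 with a replicate block by replicate number and 0.30 with the name tag block, and Krt19 to -0.64, -0.62 and -0.41 without the pair in the same 3 tools. In GFP-negative over small intestine, Krt18 turned to -0.021 with total-count scaling and Krt20 to 0.87 with the name tag block. In both colon groups over small intestine, Krt20 turned to 0.084 with the name tag block, and Krt8 to -0.0041 with a block by the start of the tag and to -0.094, -0.057 and -0.042 without the pair.

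Leaving out each library in turn, Krt8 ranged from -0.69 to 0.081 and Krt20 from -0.33 to 1.25 in GFP-high over GFP-negative, and Krt8 from -0.55 to 0.42 and Krt19 from -0.64 to 0.79 in GFP-high over small intestine. In GFP-negative over small intestine Krt8 ranged from -0.17 to 0.67, Krt18 from -0.11 to 0.32 and Krt23 from -0.84 to 0.036. In both colon groups over small intestine Krt8 ranged from -0.20 to 0.54, Krt19 from -0.12 to 1.01 and Krt23 from -0.20 to 0.70.

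Genes called in GFP-high over GFP-negative numbered 0 in edgeR, 1 in DESeq2, and, without the pair, 700 in DESeq2 and 2 in limma-voom. For GFP-high over small intestine 1173 became 2713 with DESeq2, 508, 18 and 437 with blocks by replicate number, name tag and start of the tag, 508 without the pair (1879 in DESeq2, 603 in limma-voom), and 564 to 1375 without 1 library. For GFP-negative over small intestine 1166 became 2870, 532, 0 and 236 in the same order, 3148 without the pair in DESeq2, and 531 to 1078 without 1 library. For both colon groups 1812 became 3618, 895, 18 and 500.0, then 1089 without the pair (2845 in DESeq2), and 991 to 1787 without 1 library. It was not established that replicate numbers pair the samples, so the replicate block is given here only. Deviations of same-numbered libraries from their group means correlated between -0.601 and 0.301, and not every pair was above 0.1. The value of -0.601 is that of the pair of colon replicate 2 libraries. Lgr5 goes against their labels, so this check cannot exclude pairing. The type II to type I ratio without dividing by gene length had means of 0.979, 1.17 and 1.09 in GFP-high colon, its GFP-negative fraction and small intestine. Depth does not limit the keratin values, whose lowest count was 1142. The spread between 3 libraries per group does.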
